A study of Mus musculus and Homo sapiens with 11 samples.

Results

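S100 proteins are small calcium-binding proteins, and 10 of their genes were followed here through polyadenylated RNA of a cultured mouse breast cancer line. The genes were S100a4, S100a6, S100a8, S100a9, S100a10, S100a11, S100a13, S100a14, S100a16 and S100b, taken by symbol from among 24062 listed genes. All 10 were among the 13821 genes that passed the filter on low values, a mean normalized count of at least 10 over the 6 libraries. Comparing the brain metastatic derivative with its parental line, S100a14 was 18.8-fold higher, S100b 262-fold lower, S100a8 60.1-fold lower and S100a13 3.47-fold lower. These are fitted sizes, and those of S100b and S100a8 moved with the settings. S100b rests on 7 reads in the derivative. The call of S100a8 was lost in 7 of 20 alternative analyses, and the other 6 genes did not pass the test.

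The groups were the parental MMTV-ErbB2 line (3 libraries) and its brain metastatic derivative, MMTV-ErbB2-BrM 2a, called BrM below (3 libraries). The label names both lines for the ErbB2 oncogene under the mouse mammary tumour virus promoter, which is active in mammary epithelium, so both groups carry that background and the derivative is a single line. The cells were grown in culture with serum, in DMEM or RPMI, and libraries were made with the TruSeq or the NEBNext kit, with neither choice given per library. The series also holds human HCC1954 libraries, not analysed here, and its design text describes xenografted mouse brains, which these cultured cells are not. Whether the libraries of a group were grown separately is not labelled, and the p-values then describe only how far these libraries spread, possibly for technical reasons.

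Between 29877087 and 46683735 reads per library were assigned to genes. Replicates are numbered as the table's columns number them. BrM replicates 2 and 3 differed at least 2-fold in 220 of the tested genes, while BrM replicate 1 differed from them in 3614 and 3654 and the parental libraries differed from each other in 976 to 1683. BrM replicate 1 thus stood apart from its group, and results that rest on it are given with and without it. The luminal keratins Krt8 and Krt18 were present in every library, while Krt7 was at or under 4.88. The summed luminal markers ran from 90407 to 100430 in parental and from 143728 to 158247 in BrM libraries. In bulk samples such as these, fewer cells of a type and less RNA per cell cannot be told apart.

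Most S100 proteins work as dimers. Calcium binding to a pair of EF-hand loops opens a surface that grips target proteins, among them annexins, cytoskeletal proteins and kinases. Several family members also leave the cell and act on receptors such as Toll-like receptor 4 and the receptor for advanced glycation end products, and in epithelia many are tied to differentiation, wounding and defence. All but S100b of the 10 genes lie in the S100 cluster region of mouse chromosome 3, next to genes of the skin barrier, and S100b lies on chromosome 10.

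Start regions are shown for S100a8, S100b and S100a13, the genes called lower, and for S100a9, the partner of S100a8. They come from RefSeq on build GRCm38.p6 and are written 5′ to 3′ in lower case, with capitals marking TATAAA, the core of a TATA box. The S100a8 line covers the 100 bases before the start, chr3:90668971-90669070 on the plus strand, and its TATAAA begins 30 bases before the start. The GENCODE model of S100a8 begins earlier than the RefSeq start, at 90668978, within these bases. The S100a9 line is chr3:90695712-90695811 on the minus strand and runs 10 bases past the RefSeq start, where its TATAAA begins. The S100b line is the 100 bases before the start, chr10:76253736-76253835 on the plus strand, and holds no TATAAA. The last line is everything between the starts of S100a1 and S100a13, which point away from each other, 104 bases at chr3:90514331-90514434 on the plus strand.
S100a8: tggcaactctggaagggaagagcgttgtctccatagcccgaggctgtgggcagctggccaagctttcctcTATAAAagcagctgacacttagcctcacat
S100a9: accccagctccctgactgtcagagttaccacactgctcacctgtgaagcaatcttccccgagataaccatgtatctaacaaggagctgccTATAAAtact
S100b: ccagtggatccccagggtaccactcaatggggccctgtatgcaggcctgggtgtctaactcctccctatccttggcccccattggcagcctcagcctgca
S100a1 to S100a13: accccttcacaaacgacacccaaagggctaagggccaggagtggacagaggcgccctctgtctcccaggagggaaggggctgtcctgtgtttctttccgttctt

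RefSeq start windows, 250 bases before to 50 after the start, were matched for 8 of the 10 genes, without S100a10 and S100a14. TATAAA was in the windows of 3 of the 8, S100a4, S100a8 and S100a9, and in 13.6% of all 32851 windows. The GC box letters GGGCGG were also in 3 of 8, S100a9, S100a11 and S100a16, against 35.7% of all windows. The AP-1 letters TGANTCA were in S100a11 and S100a16 (7.8% of all windows), the C/EBP letters TTGCNNAA in S100a9 (10.8%) and the Sox letters ACAAAG in S100a8 (18.7%). No motif contains another, all were searched on both strands, and a match describes the sequence only. S100a13 and S100a11 had the windows richest in CpG of the 8, with observed over expected CpG of 0.53 and 0.527 beside a median of 0.384 over all windows, and the others lay between 0.087 and 0.329.

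Of the 10 genes, 1 was higher and 3 were lower in BrM at a limma adjusted p under 0.05. S100b, with a BrM mean of 2.28, passed the filter only through the parental libraries. It therefore had to be lower, and the counts and median given here carry that. Over all tested genes 28.1% were called, 12.2% higher and 15.8% lower, and with only 10 genes a count of 4 is read against that background and no further. The parental and BrM libraries did not overlap for 7 of the 10 genes, beside 48.0% of all tested genes. Of these 7, 1 was higher and 6 were lower in BrM, where 22.3% and 25.7% of all tested genes did not overlap in those directions. The median log2 fold change of the 10 genes was -0.53, and that of all tested genes -0.05. Chromosome 3, which holds all of the 10 but S100b, had a median of -0.315 over its 655 tested genes. Of these 655, 40 were called higher and 143 lower, and the groups did not overlap for 78 and 244 in those directions. The part of this chromosome-wide shift in the S100 results was not tested. The 10 genes together took 0.287% ± 0.0428 of reads (SD, n = 3) in parental and 0.263% ± 0.0399 in BrM libraries, ranges that overlap. Without BrM replicate 1, 7 of the 10 genes were called, 2 higher and 5 lower, beside 47.2% of all tested genes. By other settings the calls among the 10 were 3 with edgeR (27.2% of all tested genes), 5 with DESeq2 (36.7%), 5 with each chromosome centred on its median (22.4%) and 8 with array weights (61.4%).

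**Figure D1:**
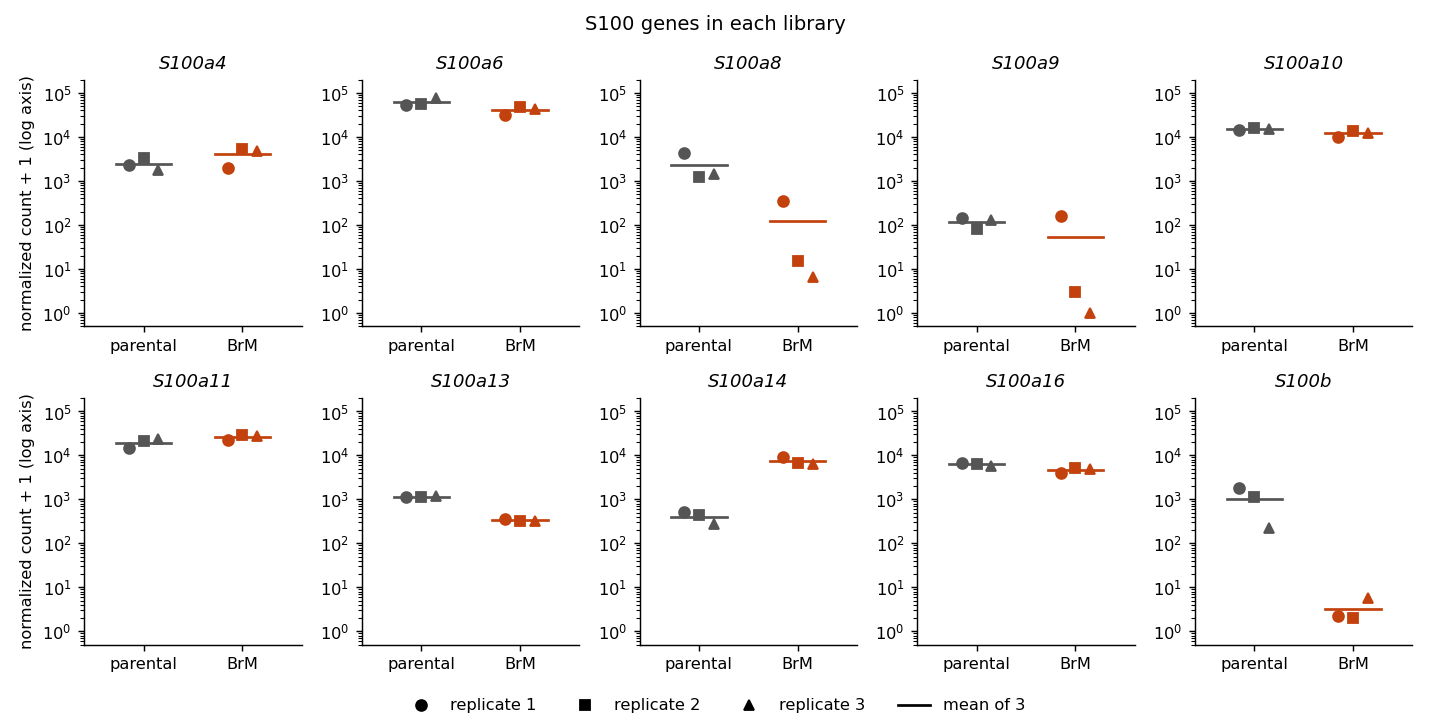
Normalized counts plus 1 (log axis) of the 10 S100 genes in each of the 6 libraries, with a line at the mean of each group. S100a14 was higher in all 3 BrM libraries, S100a13 and S100b were lower in all 3, and for S100a8 and S100a9 BrM replicate 1 lay far above BrM replicates 2 and 3.

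S100a8 and S100a9 encode the subunits of calprotectin, which binds zinc and manganese away from microbes and signals through Toll-like receptor 4. It is abundant in neutrophils and is made by inflamed epithelia. S100a8 (chromosome 3, 90668978 to 90670035 on GRCm38, plus strand) had normalized counts of 4273, 1240 and 1454 in parental replicates 1 to 3 and of 352, 14.3 and 5.59 in BrM replicates 1 to 3. Every BrM library lay below every parental one, with means of 2323 ± 1693 and 124 ± 197 (SD, n = 3 each). The log2 fold change was -5.91 (SE 1.45, limma adjusted p = 0.0255), and the ratio of the group means was 18.8. The call was lost when any library other than BrM replicate 1 was left out (adjusted p between 0.0639 and 0.0947), and without BrM replicate 1 the log2 fold change was -7.62 (adjusted p = 0.000361). With edgeR it was -4.26 (adjusted p = 0.0797), and with BrM replicates 2 and 3 averaged into 1 sample it was -4.99 (adjusted p = 0.0712).

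S100a9 (chromosome 3, 90692632 to 90695721, minus strand) was the scarcer of the pair. Its counts were 141, 77.4 and 130 in the parental libraries and 156, 1.91 and 0 in BrM, from 128, 2 and 0 reads. BrM replicate 1 lay above every parental library and the other two lay far below, so the groups overlapped. The log2 fold change was -3.88 (SE 1.77, limma adjusted p = 0.152), -6.06 without BrM replicate 1 (adjusted p = 0.000586) and -1.17 with edgeR (adjusted p = 0.627). Per kb of exon, S100a8 was 22.7, 12.1 and 8.39 times S100a9 in the parental libraries, 1.69 times in BrM replicate 1 and 5.64 times in BrM replicate 2, where it rests on 15 and 2 reads.

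Neutrophil markers were checked beside this pair. Retnlg was at 0 in every library, and Mpo, Elane and Ngp were at or under 1.91. Camp, another granule gene, was at 70.2, 28.8 and 11.3 in the parental libraries and at 1.22, 0 and 0.931 in BrM. Its log2 fold change was -4.19 (limma adjusted p = 0.00824). Camp passed the filter only through the parental libraries, so it had to be lower. The summed level of the 7 listed neutrophil markers was 166 to 221 in parental and 239 to 280 in BrM libraries, most of it from the chemokine receptor Cxcr2. The summed macrophage markers were 952, 231 and 226 in the parental and 3002, 470 and 449 in the BrM libraries, highest in replicate 1 of each group, with C1qa at 0 and Ptprc at or under 4.88 everywhere. In BrM replicate 1 most of that sum was Cd68, at 2670. Csf1r, the receptor of macrophage colony-stimulating factor, rose from 7.52 ± 9.84 to 268 ± 45.7 (SD, n = 3, limma adjusted p = 0.0037). Csf1r passed the filter only through the BrM libraries, so it had to be higher. Lyz2 was at 353 in parental replicate 1, at 6.59 and 6.61 in the other parental libraries and at or under 2.44 in BrM. The part of these levels in the S100a8 and S100a9 results was not tested.

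Genes of epithelial defence and the acute phase, which often accompany calprotectin, were counted from a list. Of its 11 genes 9 were tested, and 6 fell while none rose by limma, with a median log2 fold change of -5.10. Over all tested genes 15.8% were called lower and 12.2% higher. No gene of the list was higher at an unadjusted p under 0.05 either, and edgeR and DESeq2 also called 0 higher. Of the 9, Saa1, Saa2 and Saa3 had a BrM mean under 10 and passed the filter only through the parental libraries, so they had to be lower, and the count and median carry that. Saa1, a serum amyloid A, had means of 572 ± 578 and 0 (SD, n = 3), with no read in any BrM library, which makes it at least 529-fold lower against a floor of 3 reads over the group. Saa2 had 3469 parental reads and 1 BrM read, a ratio of 3131 with a 95% counting interval of 562 to 123699. Saa3 fell by 10.73 on the log2 scale (limma adjusted p = 0.00428), and Slpi, an inhibitor of leukocyte elastase, was 24.5-fold lower (limma adjusted p = 0.00219).

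BrM replicate 1 stood above BrM replicates 2 and 3 for several of these genes as it did for the calprotectin pair. It was 35.3 times their mean for S100a8 and 163 times for S100a9. The iron-related defence genes Lcn2 and Ltf, named after their values were seen, did likewise, at 165 times for Lcn2 and 54.6 times for Ltf. Ltf was at 130970 in BrM replicate 1, above all parental libraries (39111 to 56992), and at 2480 and 2316 in the other two. Neither Lcn2 (limma adjusted p = 0.0673) nor Ltf (limma adjusted p = 0.305) passed the test over all libraries.

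**Figure D2:**
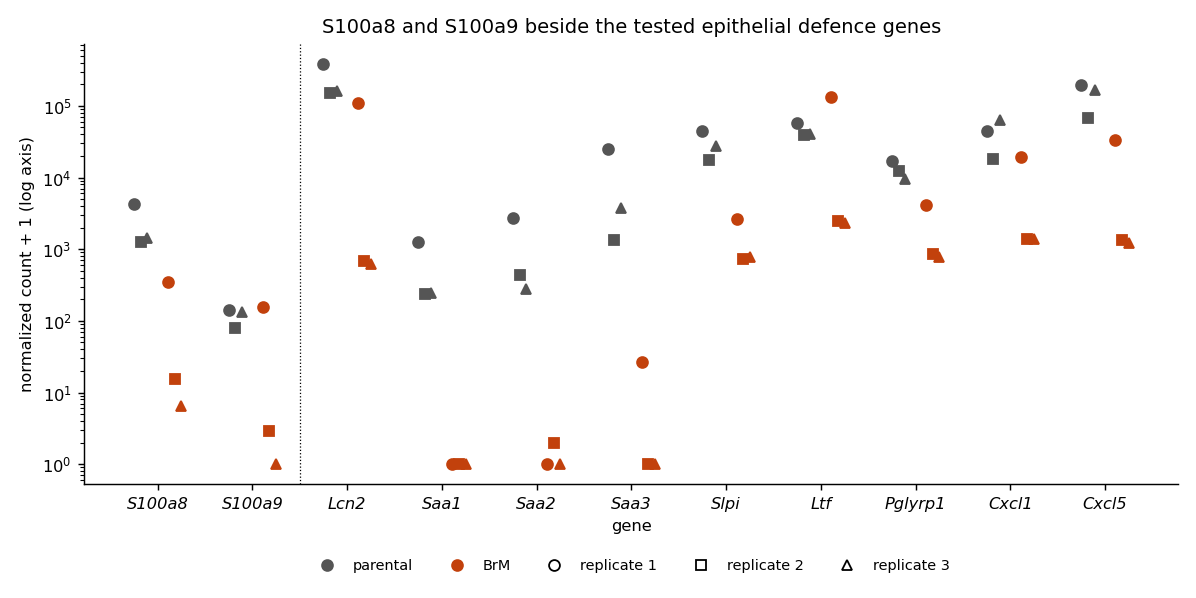
Normalized counts plus 1 (log axis) of S100a8, S100a9 and the 9 tested epithelial defence genes, parental libraries in grey and BrM libraries in orange with a symbol for each replicate. BrM replicate 1 (circle) lay above BrM replicates 2 and 3 for S100a8, S100a9, Lcn2, Ltf, Cxcl1 and Cxcl5, while Saa1 had no read in any BrM library.

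S100b (chromosome 10, 76253853 to 76261159, plus strand) is best known from astrocytes, Schwann cells and melanocytes, and it binds p53 and NDR kinases. Its counts were 1777, 1135 and 218 in the parental libraries and 1.22, 0.956 and 4.66 in BrM, where it rested on 7 reads in all. It passed the filter only through the parental libraries, so it had to be lower. The parental libraries spanned 8.15-fold, and the lowest of them was still far above the highest BrM library. The log2 fold change was -8.03 (SE 0.86, limma adjusted p = 0.00133), a fitted 262-fold decrease with a ratio of group means of 458, and the call held in 20 of 20 alternatives. With a pseudocount of 0.5 the fitted decrease was 324-fold, and with a pseudocount of 5 it was 108-fold. S100b shares 1731 bases with Dip2a on the opposite strand. Whether reads were counted by strand is not given in the sources used here. Dip2a itself was at 4133 ± 417 and 4071 ± 272 (SD, n = 3, limma adjusted p = 0.925).

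Markers of glia and neural crest did not all go the way of S100b. Of 12 listed genes 8 were tested, and 3 rose and 3 fell in BrM, beside 12.2% and 15.8% of all tested genes. Those that fell were the astrocyte enzyme Aldh1l1 and the glutamate transporters Slc1a2 and Slc1a3. Aldh1l1 and Slc1a3 had a BrM mean under 10 and passed the filter only through the parental libraries, so they had to be lower. Those that rose were Gfap, Mbp and the neural crest factor Sox10, which went from 56.7 ± 37.4 to 732 ± 17.3 (SD, n = 3). The summed level was 5547 to 6610 in parental and 3002 to 3265 in BrM libraries, with Dct at 0 everywhere and Aqp4 and Mog at or near 0. The summed level of 4 basal epithelial markers was 10657 to 14163 in parental and 2273 to 5151 in BrM libraries. Krt14, Trp63 and Acta2 fell, while Krt5 rose from 3.73 ± 1.70 to 26.3 ± 15.7 (SD, n = 3, limma adjusted p = 0.02). Acta2 passed the filter only through the parental libraries and had to be lower. Krt5 passed only through the BrM libraries and had to be higher. The part of these levels in the S100b result was not tested.

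S100a13 (chromosome 3, 90514435 to 90524581, plus strand) helps to export FGF1 and interleukin 1 alpha, proteins that lack a signal peptide. It had the tightest values of the 10 genes, 1136, 1138 and 1179 in the parental libraries and 353, 317 and 324 in BrM. The means of 1151 ± 24.5 and 331 ± 19.1 (SD, n = 3) were 3.47-fold apart in the fit, with a log2 fold change of -1.80 (SE 0.15, limma adjusted p = 0.000558), called in 20 of 20 alternatives. Its neighbour S100a1, a family member known from heart and muscle, moved by a like amount. S100a1 had counts of 2493, 2631 and 3352 in parental and 785, 769 and 705 in BrM libraries, a log2 fold change of -1.90 (SE 0.16, limma adjusted p = 0.00057). The sequence printed last above is all that separates the RefSeq starts of S100a1 and S100a13, with 58.7% GC and 3 CpG.

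The cargo of S100a13 went in both directions. Il1a, the interleukin, had means of 29.7 ± 28.2 in parental and 4924 ± 7084 in BrM libraries, and was 13104, 861 and 808 in BrM replicates 1 to 3. It rose by 6.55 on the log2 scale (SE 1.24, limma adjusted p = 0.0107). Fgf1 was lower, at 280 ± 98.6 and 53.6 ± 45.6 (SD, n = 3), with a log2 fold change of -2.61 (SE 0.60, limma adjusted p = 0.0209) that passed in 15 of 20 alternatives.

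S100a14 (chromosome 3, 90526856 to 90528837, plus strand), found mainly in epithelia, was the member that rose. Its counts were 505, 432 and 275 in the parental libraries and 9166, 6845 and 6386 in BrM. The lowest BrM library was far above the highest parental one, with means of 404 ± 118 and 7466 ± 1490 (SD, n = 3). The log2 fold change was 4.23 (SE 0.27, limma adjusted p = 0.000217), and the call held in 20 of 20 alternatives. S100a14 starts 2275 bases after the end of S100a13 on the same strand, so the gene that rose and a gene that fell are direct neighbours. Epithelial markers moved too. Krt8 rose from 28250 ± 7300 to 69809 ± 6322 and Krt18 from 19135 ± 993 to 43588 ± 4630 (SD, n = 3), Cdh1 fell, and Epcam, at 20991 ± 1080 and 18478 ± 3467, did not pass (limma adjusted p = 0.41). The part of these levels in the S100a14 result was not tested.

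The most abundant S100 genes did not pass the test. S100a6, or calcyclin, which binds the ubiquitin ligase adaptor Cacybp, had counts of 53489, 57009 and 77009 in parental and 32051, 49004 and 42708 in BrM libraries. All BrM values were below all parental ones, but the log2 fold change of -0.60 (SE 0.23) had a limma adjusted p of 0.0962. Its share of the reads of the 10 genes was 55.9% ± 4.43 in parental and 42.6% ± 2.36 in BrM libraries (SD, n = 3). S100a11, a partner of annexin A1, had counts of 14643, 21114 and 23136 in parental and 22307, 29547 and 27632 in BrM libraries. The lowest BrM library fell within the parental range, and the log2 fold change was 0.45 (SE 0.22, limma adjusted p = 0.168). With each chromosome centred on its own median it was 0.75 (limma adjusted p = 0.0458), which passes. The same centring gave S100a6 a log2 fold change of -0.304 (limma adjusted p = 0.382).

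S100a10 cannot bind calcium and holds annexin A2 in a complex at the plasma membrane, where plasminogen is activated. It was at 14355, 15872 and 15303 in parental and 9898, 13648 and 12413 in BrM libraries. The groups did not overlap, and the log2 fold change was -0.35 (SE 0.15, limma adjusted p = 0.136). With each chromosome centred on its own median it was -0.053 (limma adjusted p = 0.821). Its partner Anxa2 also did not pass, at 53544 ± 4009 and 47053 ± 14615 (SD, n = 3, limma adjusted p = 0.541). Of the 4 plasminogen genes on the list 1 was called, beside 28.1% of all tested genes. This was Plau, the urokinase activator. Plau had counts of 260, 758 and 778 in parental and 16615, 12803 and 12325 in BrM libraries, 25.7-fold higher (limma adjusted p = 0.000794), while its receptor Plaur was at 3678 ± 1503 and 3401 ± 197.

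S100a4, also called metastasin, binds non-muscle myosin. Its counts were 2268, 3379 and 1797 in parental and 1956, 5338 and 4679 in BrM libraries. BrM replicates 2 and 3 lay above all parental libraries and BrM replicate 1 within their range, giving a log2 fold change of 0.61 (SE 0.42, limma adjusted p = 0.331). Without BrM replicate 1 it was 1.06 (limma adjusted p = 0.0189). Its target Myh9, a non-muscle myosin heavy chain, was at 45585 ± 4691 and 33281 ± 7006 (SD, n = 3) and did not pass (limma adjusted p = 0.116). S100a4 also marks fibroblasts, and the summed fibroblast markers were 1568 to 5896 in parental and 212 to 997 in BrM libraries, with Lum at 0 everywhere. The part of these levels in the S100a4 result was not tested. S100a4 shares 2115 bases with the predicted gene Gm42674 on the same strand.

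S100a16, a widely expressed member, had counts of 6735, 6403 and 5759 in parental and 3893, 5081 and 4895 in BrM libraries. The groups did not overlap, and the log2 fold change was -0.45 (SE 0.15, limma adjusted p = 0.0623). With each chromosome centred on its own median it was -0.154 (limma adjusted p = 0.452). It passed in 3 of 20 alternatives, among them DESeq2 (adjusted p = 0.034) and leaving out BrM replicate 1 (limma adjusted p = 0.0429, log2 fold change -0.33).

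Levels of different genes were compared per kb of annotated exon. In the parental line the order from high to low was S100a6 (mean 45722 normalized counts per kb), S100a11 (38417), S100a10 (12522), S100a4 (4249), S100a16 (3895), S100a8 (3347), S100a13 (1610), S100b (703), S100a14 (234) and S100a9 (223). The libraries of neighbours in that order overlapped for S100a6 with S100a11, for S100a4 with S100a16, for S100a16 with S100a8, for S100b with S100a14 and for S100a14 with S100a9, so those steps are not beyond the spread. In BrM the order was S100a11 (51850), S100a6 (30179), S100a10 (9890), S100a4 (6834), S100a14 (4323), S100a16 (2859), S100a13 (463), S100a8 (178), S100a9 (101) and S100b (1.53). S100a11 and S100a6 exchanged places, and in BrM their libraries no longer overlapped. In BrM the overlapping neighbours were S100a10 with S100a4, S100a4 with S100a14, S100a13 with S100a8, S100a8 with S100a9, and S100a9 with S100b. The BrM levels of S100a8 and S100a9 rest on BrM replicate 1, at 507 and 299 per kb. Without it the means per kb were 14.4 for S100a8, 1.83 for S100a9 and 1.89 for S100b, so that S100a9 and S100b stood level at the low end.

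**Figure D3:**
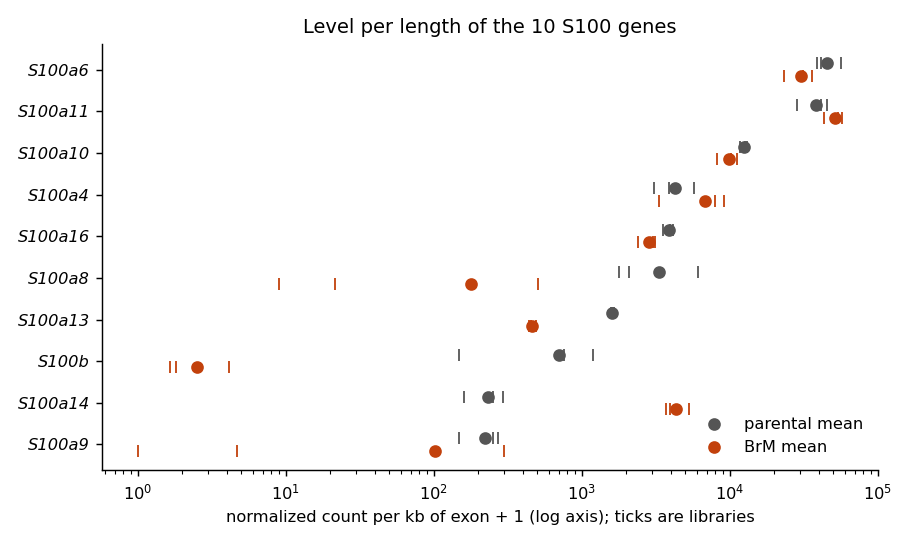
Normalized counts per kb of exon plus 1 (log axis) of the 10 genes, ordered by the parental mean, with dots at group means and ticks at single libraries. S100a6 and S100a11 were the top pair in both groups, S100a14 went from 234 to 4323 per kb, and S100b went from 703 to 1.53 per kb.

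Family members outside the 10 were few. Of 7 others that were listed, 3 were tested, with S100a1 lower, S100a7a higher and S100a3 not called (log2 fold change 0.64, limma adjusted p = 0.181). Of all tested genes, 12.2% were called higher and 15.8% lower. S100a7a, the mouse relative of psoriasin, had counts of 31.5, 44.5 and 133 in parental and 314, 398 and 357 in BrM libraries, 6.09-fold higher (limma adjusted p = 0.0138), which passed in 17 of 20 alternatives. S100a2 was under the filter at 2.21 ± 1.48 and 9.98 ± 3.08 (SD, n = 3), and its model lies within that of S100a3 on the same strand. S100g was at 2.50 ± 2.74 and 1.12 ± 1.23, and S100a5 and S100z had means under 1.

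Cytosolic partners of S100 proteins were called in 4 of 13 tested cases, 2 higher and 2 lower, with a median log2 fold change of 0.30. Over all tested genes 28.1% were called, with a median of -0.05, so the count is near the general share. Beside Il1a and Fgf1 these were Ppfibp1, the liprin that binds S100a4, 1.45-fold higher (limma adjusted p = 0.0321, not passing in 9 of 20 alternatives), and Stk38, an NDR kinase bound by S100b, with a log2 fold change of -0.75 (limma adjusted p = 0.00908). Annexins were not called: Anxa1, the partner of S100a11, was at 32682 ± 6456 and 41030 ± 8634 (SD, n = 3, limma adjusted p = 0.312). Cacybp, the partner of S100a6, was at 4205 ± 517 and 6792 ± 2178 (limma adjusted p = 0.124).

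Surface receptors reported for secreted S100 proteins were called in 3 of 6 tested cases, all lower, with a median log2 fold change of -0.59. Over all tested genes 28.1% were called, 12.2% higher and 15.8% lower. The count of higher receptors was 0 by limma, edgeR and DESeq2, and also 0 at an unadjusted p under 0.05. With 6 tested genes no direction is read from these counts. Tlr4, the receptor of calprotectin, had counts of 1403, 1071 and 1309 in parental and 372, 684 and 746 in BrM libraries, a log2 fold change of -1.12 (limma adjusted p = 0.0324) that passed in 14 of 20 alternatives. Nptn, or neuroplastin, fell by 0.84 on the log2 scale (limma adjusted p = 0.0112, not passing in 4 of 20 alternatives). Alcam, an immunoglobulin-family adhesion molecule, was at 2363 ± 369 and 289 ± 8.62 (SD, n = 3), 8.09-fold lower (limma adjusted p = 0.000156) in 20 of 20 alternatives. Ager, the receptor for advanced glycation end products, was at 66.7 ± 33.5 and 94.6 ± 68.4 (limma adjusted p = 0.658).

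**Figure D4:**
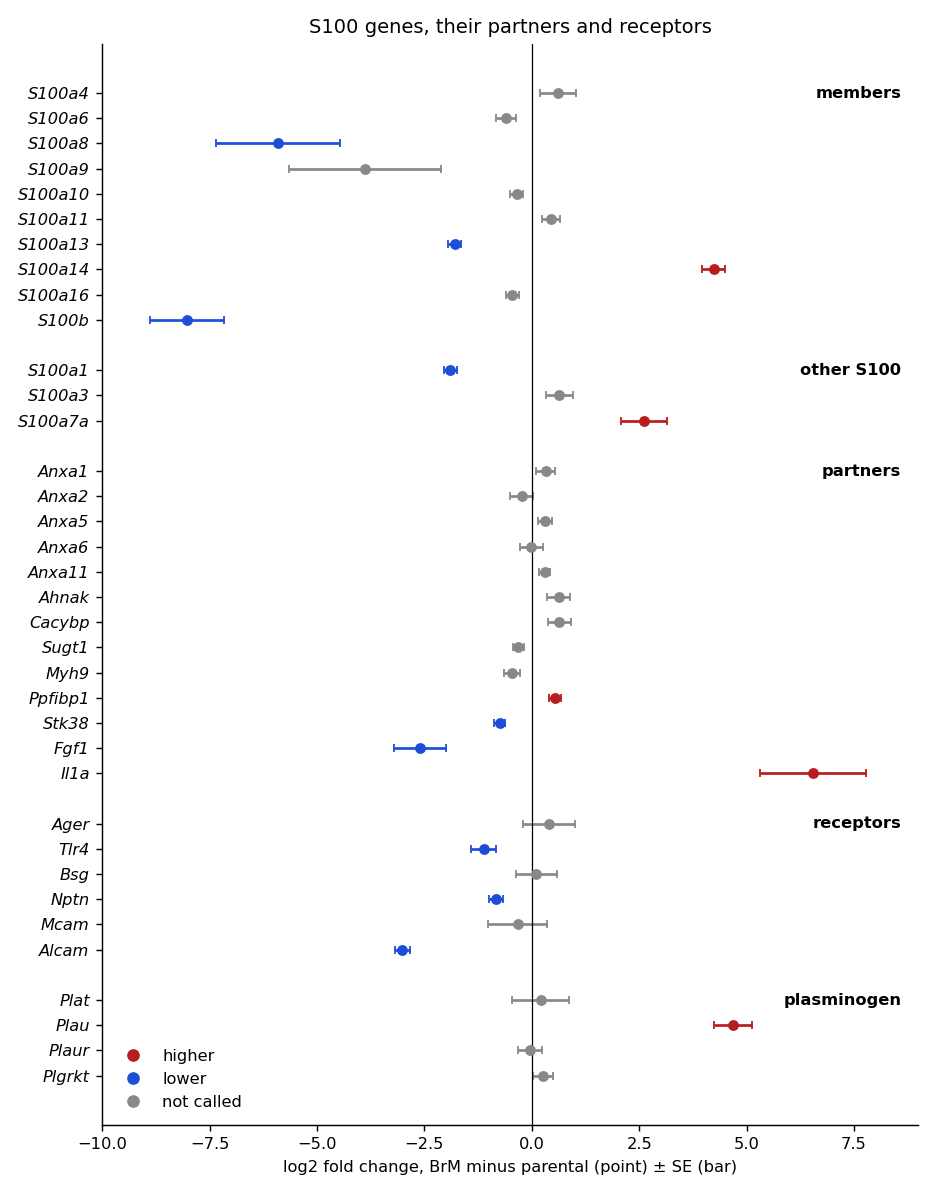
Log2 fold changes (BrM minus parental, points) with standard errors (bars) of the 10 S100 genes, 3 other tested S100 genes, and their tested partners, receptors and plasminogen genes. Among the 10, S100a14 lies at 4.23 and S100b at -8.03, while most partners lie near 0 apart from Il1a at 6.55 and Fgf1 at -2.61.

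Other EF-hand proteins gave a mixed picture. Of 30 listed genes 26 were tested, with 4 higher, 9 lower and a median log2 fold change of -0.06, close to that of all tested genes. Over all tested genes 12.2% were called higher and 15.8% lower. Rcn3, with 2 BrM reads and 101 parental reads, passed the filter only through the parental libraries, so it had to be lower. Calb2, or calretinin, which passed the filter only through BrM, had no parental read and 123 BrM reads, at least 45.4-fold higher against a floor of 3 reads over the group. Lcp1, the actin bundler L-plastin, was higher (log2 fold change 2.02, limma adjusted p = 0.00342). Calm2, a calmodulin gene, fell by 0.90 on the log2 scale (limma adjusted p = 0.0031), and Nucb1, a calcium-binding protein of the Golgi, fell by 1.20 (limma adjusted p = 0.00424).

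Position was looked at because 9 of the 10 genes share a stretch of chromosome 3, 3:90514435 to 93564643 on GRCm38, 3.05 Mb long. It holds 68 listed genes, of which 19 were tested, with 5 higher and 2 lower, beside 12.2% and 15.8% of all tested genes. Outside the 9 members 10 genes were tested, and 4 of them were called, all higher. Of these 10, Sprr2h, Lce1g, Lce1h and Tchh had a parental mean under 10 and passed the filter only through the BrM libraries, so they had to be higher, and no direction is read from the count. Tchh, or trichohyalin, an S100 fused-type protein of hair and epithelia, went from 4.47 ± 1.87 to 138 ± 10.6 (SD, n = 3), 26.2-fold higher (limma adjusted p = 0.000436). Ivl, or involucrin, a cornified envelope protein, went from 14.4 ± 3.92 to 254 ± 108, a log2 fold change of 3.97 (limma adjusted p = 0.00179). S100a7a and Lce1g were the others, and Lce1g, a late cornified envelope gene named after its values were seen, went from 8.85 ± 5.94 to 140 ± 129 (limma adjusted p = 0.0144). Its BrM counts were 289, 63.1 and 68.9, and it passed in 18 of 20 alternatives, without BrM replicate 1 among them (limma adjusted p = 0.00905) but not without parental replicate 1 (0.0512) or 2 (0.0537).

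Direction changed from gene to gene along the first part of that stretch. S100a13 fell, S100a14 rose, S100a16, S100a3, S100a4 and S100a6 were not called, S100a7a rose and S100a8 fell, all within 200 kb. S100a8 and S100a9, 22597 bases apart, both had negative log2 fold changes, and S100a11 and S100a10 lie 2824767 bases or more beyond S100a9.

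**Figure D5:**
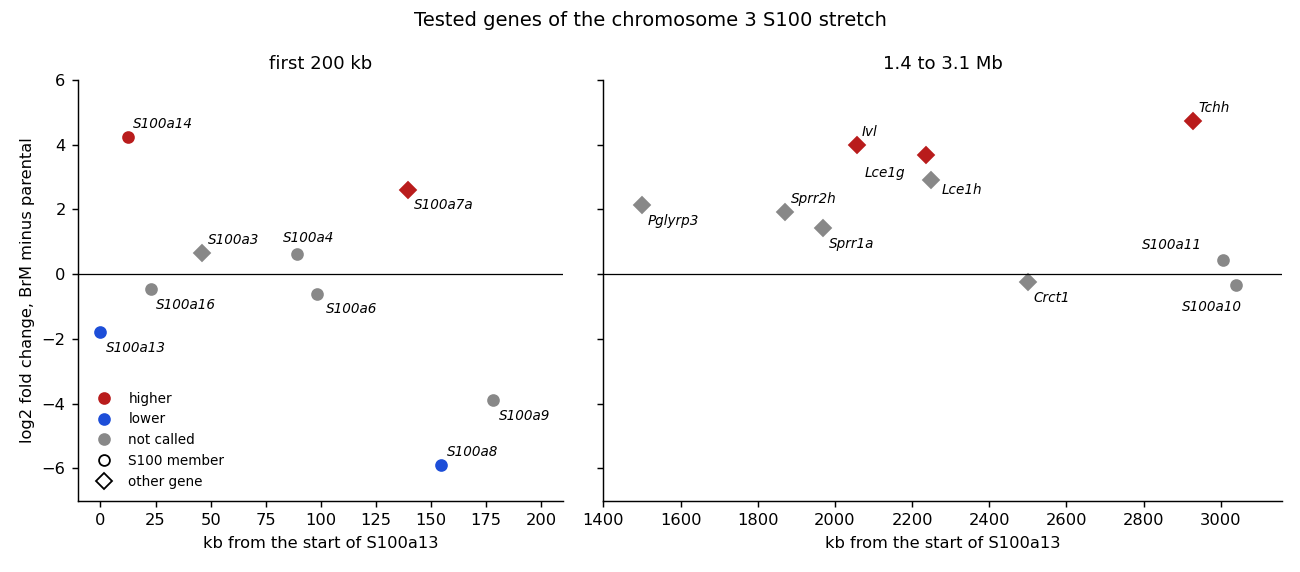
Log2 fold change (BrM minus parental) of the tested genes of the chromosome 3 stretch against distance from the start of S100a13 in kb, with circles for the S100 members and diamonds for other genes. Red marks higher, blue lower and grey not called: S100a14, S100a7a, Ivl, Lce1g and Tchh are red, and S100a13 and S100a8 are blue.

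For each of the 10 genes the gene most alike in pattern was taken among 11357 others with a mean of at least 100, by Pearson r of log2 values over the 6 libraries. With 2 groups of libraries, a high r is common for genes that differ between the groups, and r says nothing of size. S100a13 was most like Loxl4 (r = 1.000, 150 candidates above 0.99), which had a log2 fold change of -7.53. S100a14 was most like Setd3 (r = 0.999, log2 fold change 1.10), S100b most like Tusc1 (r = 0.998, log2 fold change -1.22), and S100a8 most like Tmem50b (r = 0.999, log2 fold change -0.65, not called). For the genes that did not pass, the nearest were Rps2 for S100a4 (r = 0.995), Golga1 for S100a6 (0.990), Pex11a for S100a9 (0.995), Vps4a for S100a10 (0.995), Mmp9 for S100a11 (0.994) and Tram1 for S100a16 (0.998). These are descriptions of 6 libraries.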

How the data were processed

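The deposited table held signal values, normalized read counts made by the authors, for 3 parental and 3 BrM libraries. STAR, HTSeq, GRCh38 and GRCm38 are named per the submitters' processing notes, with no versions. The scaling tool, the annotation and the strand setting are not given in the sources used here. In each library 100% of values were whole multiples of the value of 1 read to within 0.01 read, so reads could be recovered, and 29877087 to 46683735 reads were assigned per library. Chi-square per degree of freedom between BrM replicates 2 and 3 was 10.7, above sampling noise, and 121 to 298 for the other pairs within a group.

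BrM was compared with parental by limma 3.58.1 (R 4.3.3) with an intensity trend, on log2 of the value plus a pseudocount of 1, over all 13821 genes with a mean of at least 10, two-sided. A gene was called where its Benjamini-Hochberg adjusted p was under 0.05. Folds are on that scale. Floors and intervals cover counting error only. Library replicates carry the table's column numbers, since 1 title in each group has no number, and no covariate was used. Alternatives were other pseudocounts, filters and scalings, limma settings, array weights, replicate blocks, edgeR 4.0.16 and DESeq2 1.42.0 on recovered reads, averaging BrM replicates 2 and 3, and leaving out each library. The code was tested on simulated data.

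The members, the lists and the alternatives were chosen with earlier results of these data known. Text names all 10 members, other S100 genes with a mean of at least 1, called genes of the partner, receptor and plasminogen lists, up to 4 called genes of smallest p of the EF-hand and defence lists, the gene nearest in pattern to each member, and the 4 called genes of the chromosome 3 stretch with the largest change. Partners, receptors and markers outside this rule are named as context for a member. Exon lengths and positions came from GENCODE M21 (98.3% of listed genes matched, 932 through an older symbol), and sequences from RefSeq. Figures were drawn with matplotlib 3.10.9.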

Additional observations from a re-analysis of the deposited data

How the results depend on the processing

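S100a13, S100a14 and S100b were called in the same direction in all 20 alternatives, and over the 10 genes 184 of 200 values kept their side of the threshold, 7 lost it (all of S100a8) and 9 gained it. No S100 gene of the 10 changed direction. The count of 3881 called genes became 8485 with array weights, 2279 with BrM replicates 2 and 3 averaged, and 2191 to 6519 when 1 library was left out. The S100 genes called higher, 1, became 2 with each chromosome centred, 3 with array weights and 1 to 2 with 1 library left out (2 without BrM replicate 1). Those called lower, 3, became 5 with array weights and 2 to 5 with 1 library left out (5 without BrM replicate 1). The 30 calls in the surrounding lists became 46 with array weights, 18 with BrM replicates 2 and 3 averaged and 16 to 37 with 1 library left out. The 4 calls of the chromosome 3 stretch outside the members became 7 with no filter, 7 with array weights, and 2 to 5 with 1 library left out (2 without parental replicate 2). Ltf, not called, had a log2 fold change of 0.0273 with DESeq2. The causes were not tested. A block by the number in the titles was not run, because the columns could not be matched to titles. In its place, added after seeing the data, a replicate block over column numbers 1 and 2 gave 2067 called genes and one over column numbers 1 to 3 gave 4040. Deviations of same-numbered libraries correlated at 0.30, -0.09 and 0.33, and those of differently numbered libraries at -0.34 to 0.31. Deviations from a group mean depend on each other, so these values cannot decide whether same-numbered libraries were paired. Neither block changed a call among the 10 genes. Upper quartile scaling moved the median of all genes by 0.11 on the log2 scale. With 3 libraries a group, S100a8 and S100a9 rest on few reads in BrM replicates 2 and 3, and S100b on 7 reads in BrM.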
